A study of Mus musculus with 4 samples.

Results

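The nuclear lamina and the inner nuclear membrane were followed through 10 genes: the lamins Lmna, Lmnb1 and Lmnb2, the lamin B receptor Lbr, the LEM proteins Emd, Tmpo and Lemd3, their chromatin partner Banf1, and the SUN proteins Sun1 and Sun2. They were chosen by symbol, with earlier results of these data known, from a table of 47935 rows, and each of the 10 was found in 1 row. The samples were MEL cells, a mouse erythroleukemia line arrested at an early erythroid stage that resumes an erythroid-like programme when dimethyl sulfoxide (DMSO) is added. There were 2 uninduced samples, grown without DMSO, and 2 induced samples, grown with 1.5% DMSO in the same serum-containing medium. No genetic change was named for either group, and the labels do not state for how long DMSO was present. A single line was used, so the comparison describes that line and not primary erythroblasts. The comparison asked which transcripts differ between the cells before and after the induction of differentiation.

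Lamins are intermediate filament proteins that form a meshwork under the inner nuclear membrane. B-type lamins stay attached to the membrane through a farnesyl group and are made in nearly all cells, whereas A-type lamins, lamin A and lamin C, are splice forms of Lmna whose amount varies widely between cell types. The lamin B receptor and the LEM proteins tie this meshwork and the membrane to chromatin. LEM proteins do so through BAF, a small DNA-bridging protein encoded by Banf1 that also gathers chromosomes into 1 nucleus after mitosis. SUN proteins span the inner membrane and join KASH proteins of the outer membrane in the LINC complex, which couples the nucleus to the cytoskeleton. In mammalian red cell formation the nucleus condenses and is expelled, and the lamina is remodelled on the way.

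Levels are in FPKM, which divides the fragments of a transcript by its length and by a library total, so that different genes can be set side by side per length. Sums of FPKM ran from 1055861 to 1325806 per sample, and 12151 to 12645 rows per sample reached 1 FPKM. A single small RNA row, Rn7sk, held 8.84% and 12.8% of the sum in uninduced and 18.7% and 0% in induced replicates 1 and 2, and its part in the results was not tested. The number of reads behind these values is unknown here, so no counting error can be attached to a value. Of 8 erythroid marker genes with a row of their own, the summed level was 1171 and 1535 FPKM in the uninduced samples and 58535 and 112117 FPKM in the induced samples. Most of the induced sum was Hba-a1 (40300.5 and 67689.0 FPKM) and Hbb-bs (15799.8 and 39766.6 FPKM). All 8 were higher in both induced samples, but unequally. Gata1 measured 246.84 and 289.77 FPKM before and 346.38 and 472.67 FPKM after, and Klf1 116.16 and 116.96 against 200.04 and 242.74 FPKM. All 5 lymphoid, all 4 mast cell and all 4 stromal markers with a row of their own stayed below 1 FPKM in every sample. Of 7 myeloid markers only Cd68 exceeded 1 FPKM, and the summed myeloid level was 7.76 and 5.31 FPKM in uninduced and 2.18 and 1.35 FPKM in induced samples. The 3 megakaryocyte markers with a row of their own, led by Pf4, summed to 201 and 333 FPKM and to 111 and 142 FPKM. Nearly all of that sum was Pf4, and Gp9, another of the 3, measured 2.28 and 2.89 FPKM before and 5.05 and 4.41 FPKM after. In shared rows, Itga2b measured 46.79 and 69.48 FPKM in uninduced and 85.94 and 136.25 FPKM in induced samples, and Gp1bb 6.30 and 6.33 against 6.18 and 7.95 FPKM. Elane, Ighm, Fcer1a and Dcn, defining markers of neutrophil precursors, B cells, mast cells and fibroblasts, were listed at 0 in all 4 samples. The myeloid sum, mostly Cd68, and Pf4 were lower in both induced samples, and their part in the results below was not tested. In bulk RNA, fewer cells that carry a transcript and less of it per cell cannot be told apart.

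After induction, 2 of the 10 genes fell and none rose. Those that fell were Lmnb1, a B-type lamin, and Banf1. Lmna, Lbr and Emd had nearly equal means in both groups, and Sun1, Sun2 and Lemd3 were higher in both induced samples without passing the test. The test was limma-trend on log2(FPKM + 1), with Benjamini-Hochberg adjusted p below 0.05 over 12890 rows of at least 1 FPKM in at least 2 samples, a filter that all 10 genes met. Of all rows tested, 26.2% passed, 14.7% lower and 11.5% higher, so the count of 2 in 10 is near that of the table as a whole. At an unadjusted p below 0.05 the count was 5 of 10, namely Lmnb1, Lmnb2 and Banf1 lower and Lemd3 and Sun1 higher, beside 43.1% of all rows tested. The 2 groups did not overlap for 7 of the 10 genes, 4 lower and 3 higher after induction, beside 70.8% of all rows tested. The median log2 fold change of the 10 genes was -0.04, against 0.03 for all rows. Because 1 is added before the logarithm, a fold change on this log2(FPKM + 1) scale is smaller than the ratio of FPKM for low genes; the error given is the SE, from n = 2 samples per group. Nothing in the labels shows the replicates to be separate cultures, and the spread that the p-values rest on may be technical.

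**Figure D1:**
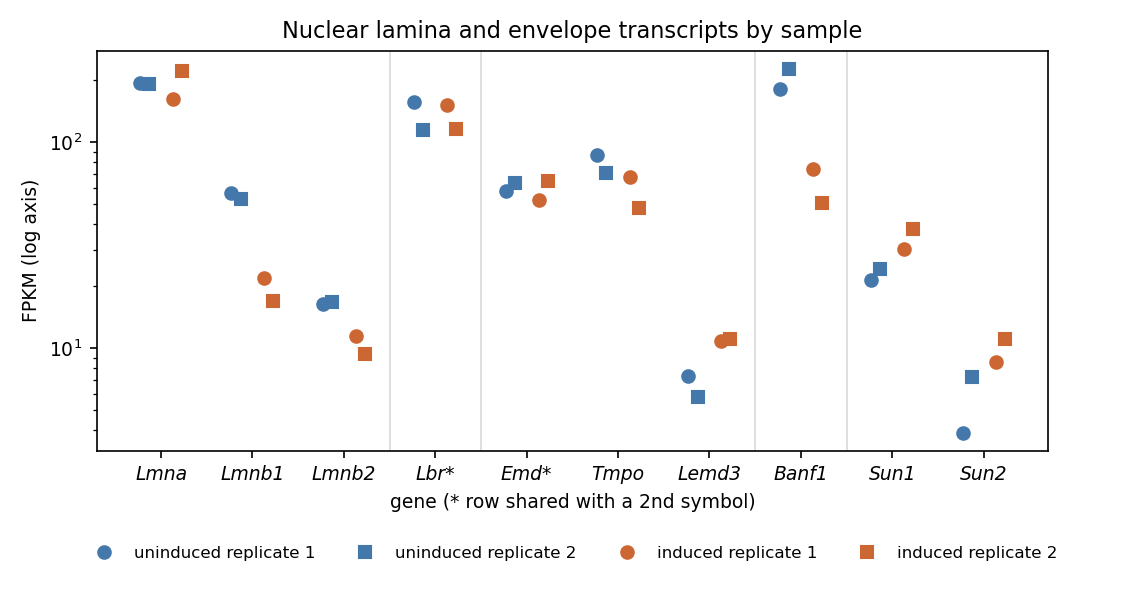
FPKM (log axis) of the 10 nuclear lamina and envelope genes in each of the 4 samples; blue marks are uninduced, orange marks induced, circles replicate 1 and squares replicate 2. For Lmnb1 and Banf1 both induced samples sit well below both uninduced samples, while for Lmna, Lbr and Emd the groups overlap.

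The levels of the 10 genes spanned a wide range. In the uninduced samples Lmna, Banf1 and Lbr were the 3 highest, between 115 and 227 FPKM, and Sun2 and Lemd3 the 2 lowest, between 3.91 and 7.36 FPKM. Lmna and Banf1 changed places between the uninduced replicates, as did Sun2 and Lemd3, so neither pair has a fixed order. In both induced samples Lmna was the highest and Lbr the next, and Banf1 was below at least 2 of the others. Lmna stood above 96.2% of the rows tested in induced replicate 2, and its standing was similar in the other samples. Lmnb1 stood above 84.8% and 84.5% of them in uninduced samples and above 70.5% and 63.9% in induced samples.

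**Figure D2:**
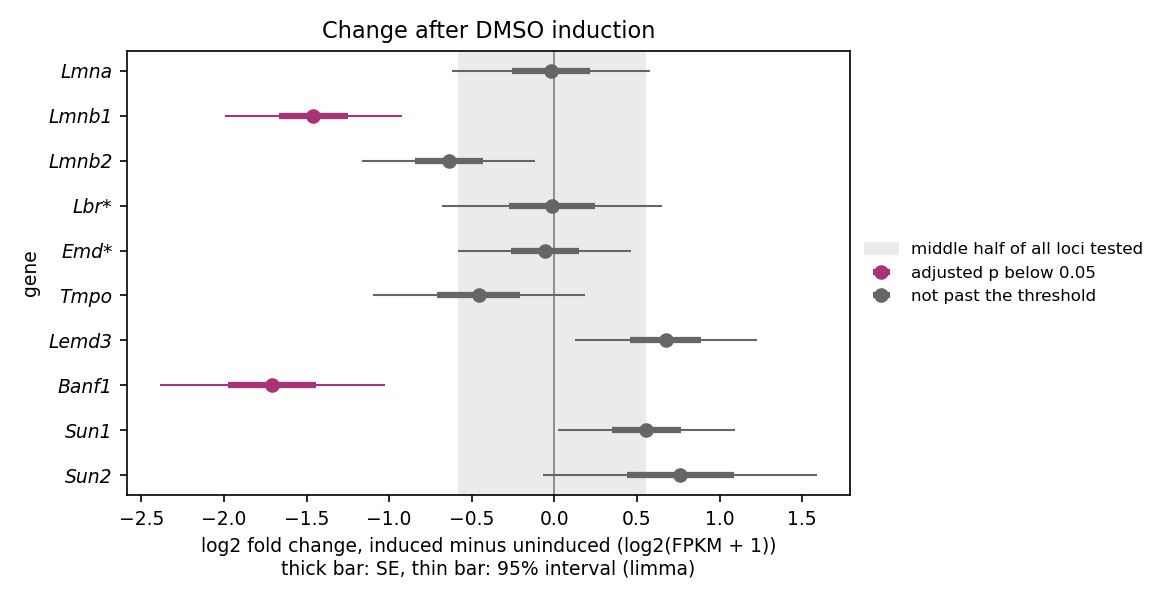
Log2 fold change of each gene, induced minus uninduced, with its SE (thick bar) and 95% interval (thin bar) from limma; the grey band runs from the lower to the upper quartile of all rows tested, -0.58 to 0.55. Lmnb1 and Banf1, in purple, lie left of the band at -1.46 and -1.71, and no other gene passed the threshold.

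Among the 3 lamins, Lmnb1 fell after induction, and Lmnb2 and Lmna did not pass the test. Lmnb1 (chromosome 18, 56707813 to 56753424, plus strand; all positions on GRCm38 from GENCODE M21) measured 56.67 and 53.18 FPKM in uninduced replicates 1 and 2 and 21.92 and 17.05 FPKM in induced replicates 1 and 2. Every induced value was under every uninduced value, and replicates of a group lay close together. The mean went from 54.9 ± 2.47 to 19.5 ± 3.44 FPKM (SD), a ratio of 0.355, and the log2 fold change was -1.46 ± 0.21 (limma adjusted p = 0.0158). That call was lost when any 1 of the 4 samples was left out (adjusted p 0.0549 to 0.102) and when low rows were kept (0.0572). Its size moved little, between -1.63 and -1.29 with 1 sample left out. Lmnb1 encodes lamin B1, a B-type lamin.

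Lmnb2, which encodes lamin B2 (chromosome 10, 80901203 to 80918245, minus strand), measured 16.48 and 16.86 FPKM in uninduced and 11.45 and 9.35 FPKM in induced samples. Its groups did not overlap and its direction was that of Lmnb1. A log2 fold change of -0.64 ± 0.20 did not pass (limma adjusted p = 0.0753), with a 95% interval of -1.16 to -0.11 that is not corrected for the number of rows. Lmna (chromosome 3, 88480147 to 88509956, minus strand) measured 194.34 and 193.05 FPKM in uninduced and 163.33 and 223.22 FPKM in induced samples. Its uninduced values nearly coincided and lay between the 2 induced values. Its log2 fold change was -0.02 ± 0.23 (limma adjusted p = 0.954), with a 95% interval of -0.62 to 0.58. Changes of up to about 1.5-fold in either direction (0.651 to 1.49) therefore remain possible for Lmna. The sign of this small difference turned under quantile normalization (0.22) and when columns were scaled to their sums without globins and the 10 most abundant rows (0.08). The Lmna row gathers 7 transcripts, so lamin A and lamin C cannot be told apart in it.

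The make-up of the lamin transcripts was compared as shares, a comparison that 2 samples per group cannot carry past the threshold. As a share of the summed FPKM of the 3 lamin genes, which does not depend on how a library was scaled, Lmna took 72.7% and 73.4% in the uninduced and 83.0% and 89.4% in the induced samples. Both induced shares exceeded both uninduced shares, by more than the replicates of either group differed. On average Lmna made up 73.0% ± 0.513 of lamin transcripts before and 86.2% ± 4.52 after induction (SD, n = 2 samples), 13.2 percentage points more. The two-sided exact permutation p was 0.333, the smallest that the 6 arrangements of 2 against 2 samples allow, and 0.667 when adjusted over the 2 shares tested in this way. Lmnb1 took 21.2% and 20.2% of lamin transcripts before and 11.1% and 6.83% after induction. Lmnb2 took 6.16% and 6.41% before and 5.82% and 3.75% after. The ratio of Lmna to Lmnb1 was 3.43 and 3.63 in uninduced samples and 7.45 and 13.1 in induced samples. The 2 B-type lamins together came to 73.2 and 70.0 FPKM before and 33.4 and 26.4 FPKM after.

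**Figure D3:**
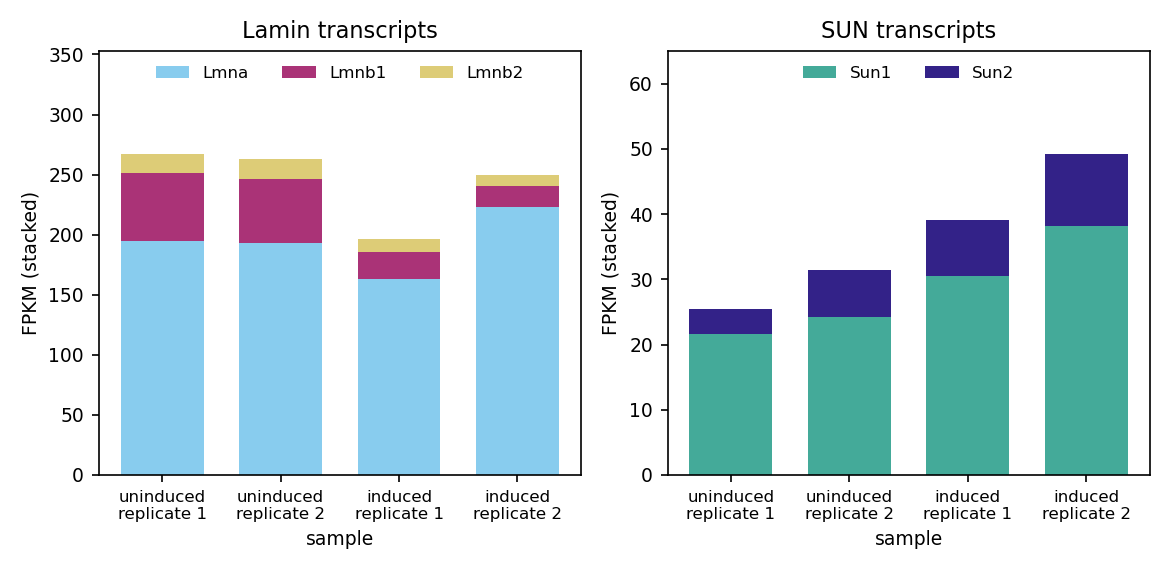
Stacked FPKM of the lamin genes (left) and of Sun1 and Sun2 (right) in each sample, with bars starting at 0. The Lmna part is 72.7% and 73.4% of the lamin bar in uninduced and 83.0% and 89.4% in induced samples, and the summed SUN bar is taller in both induced samples.

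The regulatory sequence before the lamin and SUN genes was read from RefSeq promoter windows on GRCm38.p6, of which the 250 bases before each start were used. There were 14 windows for 9 of the 10 genes, and Lmnb1 was not matched. The outermost window is shown for Lmnb2, whose groups were separated downwards, and for Sun1 and Sun2, whose groups were separated upwards. Each is printed 5′ to 3′ on the strand of its gene, with CCAAT boxes (CCAAT, or ATTGG on the other strand) and GC boxes (GGGCGG or CCGCCC) in capitals. The windows are chr10:80918246-80918495 (minus strand), chr5:139200387-139200636 (plus) and chr15:79742537-79742786 (minus).
Lmnb2: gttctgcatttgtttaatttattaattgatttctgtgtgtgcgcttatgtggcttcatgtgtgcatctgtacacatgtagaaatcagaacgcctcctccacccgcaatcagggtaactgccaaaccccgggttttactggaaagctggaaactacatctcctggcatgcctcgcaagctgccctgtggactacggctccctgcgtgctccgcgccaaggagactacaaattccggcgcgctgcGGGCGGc
Sun1: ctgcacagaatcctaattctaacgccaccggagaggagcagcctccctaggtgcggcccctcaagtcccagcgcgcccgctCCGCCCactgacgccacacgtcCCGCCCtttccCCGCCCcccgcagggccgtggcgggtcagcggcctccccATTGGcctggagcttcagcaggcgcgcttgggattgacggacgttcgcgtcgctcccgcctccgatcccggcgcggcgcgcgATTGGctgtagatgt
Sun2: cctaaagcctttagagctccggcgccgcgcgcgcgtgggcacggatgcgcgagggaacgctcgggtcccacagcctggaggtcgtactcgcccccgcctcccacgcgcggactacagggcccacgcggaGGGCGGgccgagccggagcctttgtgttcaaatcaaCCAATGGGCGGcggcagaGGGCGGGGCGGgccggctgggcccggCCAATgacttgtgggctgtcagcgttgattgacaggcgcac
The Lmnb2 window held 1 GC box, 7 bases before the start, and no CCAAT box. Sun1 had 2 CCAAT boxes and 3 GC boxes, and Sun2 had 2 CCAAT boxes and 4 GC boxes, some of which overlap. Box counts did not split by direction. The first window of Tmpo, also separated downwards, held 2 CCAAT boxes and 4 GC boxes. That of Lemd3, separated upwards, held 1 of each. Banf1, separated downwards, had 1 of each in its first window, and 3 GC boxes but no CCAAT box in its second. Over the 14 windows, 9 held a CCAAT box and 10 a GC box. Of all 32851 RefSeq windows of this length, 33.9% held a CCAAT box and 32.7% a GC box. Among the 9199 windows of genes tested here the shares were 36.1% and 59.5%. The GATA letters AGATAA, on either strand, occurred in 1 window, that of Lbr, and in 9.99% of all windows. The E-box CACGTG occurred in 0 of the 14 windows, in 6.02% of all windows and in 8.6% of those of tested genes. These matches describe the letters alone.

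Lbr (chromosome 1, 181815335 to 181843046, minus strand) encodes an inner membrane protein that binds B-type lamins and heterochromatin and also carries a sterol reductase domain. Its row measured 157.67 and 115.00 FPKM in uninduced and 152.27 and 116.53 FPKM in induced samples. In both groups replicate 2 was lower than replicate 1, and the groups overlapped throughout. The log2 fold change was -0.02 ± 0.26 (limma adjusted p = 0.968, 95% interval -0.68 to 0.65), with a sign that turned under quantile normalization (0.26) and under the sums without globins and the 10 most abundant rows (0.08). The row is shared with Gm26004, a ribosomal RNA gene, so 1 of its 9 transcripts is not from Lbr. The row starts at 181806001, outside the annotated Lbr gene.

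The LEM proteins did not move as a group. Emd, which encodes emerin (chromosome X, 74254687 to 74261548, plus strand), measured 58.40 and 63.63 FPKM in uninduced and 52.44 and 65.28 FPKM in induced samples. These ranges overlap. Emd differed by -0.06 ± 0.20 on the log2 scale (limma adjusted p = 0.847, 95% interval -0.58 to 0.47), and its sign turned under quantile normalization (0.17) and the sums without globins and the 10 most abundant rows (0.04). Its row is shared with Gm14686, a transcribed pseudogene, which supplied 1 of 7 transcripts.

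Tmpo encodes the lamina-associated polypeptide 2 family, whose splice forms bind lamins and chromatin (chromosome 10, 91147571 to 91181315, minus strand). It measured 86.60 and 71.38 FPKM in uninduced and 67.81 and 47.85 FPKM in induced samples. The higher induced value was just under the lower uninduced one. Tmpo had a log2 fold change of -0.46 ± 0.25 that did not pass (limma adjusted p = 0.221). Its row overlaps that of Gm26765, which measured 10.50 and 9.89 FPKM in uninduced and 10.42 and 5.75 FPKM in induced samples. Lemd3 encodes MAN1, an inner membrane protein that also binds SMAD proteins (chromosome 10, 120923413 to 120979332, minus strand). It measured 7.36 and 5.80 FPKM in uninduced and 10.92 and 11.13 FPKM in induced samples. Both induced values were higher and close to each other. The log2 fold change was 0.67 ± 0.21, short of the threshold (limma adjusted p = 0.0745).

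Banf1, the partner that the LEM proteins bind, had the largest change of the 10 genes. It lies on chromosome 19, 5364638 to 5367168, on the minus strand, and measured 182.37 and 227.29 FPKM in uninduced and 74.44 and 51.00 FPKM in induced samples. Every induced value was far below every uninduced value. The mean went from 205 ± 31.8 to 62.7 ± 16.6 FPKM (SD), a ratio of 0.306, and the log2 fold change was -1.71 ± 0.27 (limma adjusted p = 0.018). The call was lost when any 1 of the 4 samples was left out (adjusted p 0.0527 to 0.101) and when low rows were kept (0.0635). Set against the summed FPKM of Emd, Tmpo and Lemd3, the Banf1 level was 1.20 and 1.61 in uninduced samples and 0.568 and 0.41 in induced samples. Banf1 was thus above Emd, Tmpo and Lemd3 together in both uninduced samples and below them in both induced samples. The sum leaves out other LEM genes. In uninduced replicate 1, Lemd2 measured 15.13, Ankle2 15.36 and Ankle1 5.13 FPKM, so the order there holds for this sum only.

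Banf1 was the only 1 of the 10 genes with a protein-coding neighbour that starts within 1000 bases on the other strand. This neighbour is Eif1ad, named for its likeness to translation initiation factor 1A, and it was chosen for description after its values were seen. The rows of the 2 genes in the table do not overlap and are 167 bases apart. Eif1ad measured 50.33 and 50.95 FPKM in uninduced and 18.42 and 14.09 FPKM in induced samples. It was lower in both induced samples, by -1.59 ± 0.21 on the log2 scale (limma adjusted p = 0.0144). It lost its call under the same changes as Banf1 (adjusted p 0.0534 to 0.0935 with 1 sample left out, and 0.0568 with low rows kept). The longest annotated transcript of Banf1 reaches into the row of Eif1ad, and whether reads were counted by strand is not stated, so reads of Banf1 from that stretch could enter the value of Eif1ad. The stretch holds 1 of the 2 matches of the E2F letters TTTCCCGC among the 14 windows. The other match was in the second Tmpo window, and 0.895% of all windows and 1.74% of those of tested genes hold these letters on either strand. The 30 bases at chr19:5366939-5366968, on the strand of Banf1 and with the match in capitals, are shown because they lie between the outermost annotated starts of Banf1 and Eif1ad.
Banf1: ggtcctccggaTTTCCCGCcccctcttcgt
The other E2F letters searched, TTTGGCGC, were found in 0 of the 14 windows, in 0.417% of all windows and in 0.815% of those of tested genes.

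The SUN genes were both higher after induction and neither passed the test. Sun1 (chromosome 5, 139200637 to 139249840, plus strand) measured 21.61 and 24.22 FPKM in uninduced and 30.55 and 38.14 FPKM in induced samples. Sun2 (chromosome 15, 79724070 to 79742536, minus strand) measured 3.91 and 7.23 FPKM in uninduced and 8.56 and 11.14 FPKM in induced samples. Neither gene had overlapping groups, although the uninduced values of Sun2 lay further apart than its highest uninduced and lowest induced values. The log2 fold change was 0.56 ± 0.21 for Sun1 (limma adjusted p = 0.106). For Sun2 it was 0.76 ± 0.32 (limma adjusted p = 0.137), and it moved between 0.39 without uninduced replicate 1 and 1.13 without uninduced replicate 2. Together the SUN transcripts summed to 25.5 and 31.4 FPKM before and 39.1 and 49.3 FPKM after induction. The Sun1 share of that sum was 84.7% and 77.0% in uninduced and 78.1% and 77.4% in induced samples. This share did not differ beyond the spread of the uninduced samples (difference -3.09 percentage points, two-sided exact permutation p = 1, and 1 adjusted over the 2 shares). Without uninduced replicate 1 the difference in share was 0.743 points, of the opposite sign.

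**Figure D4:**
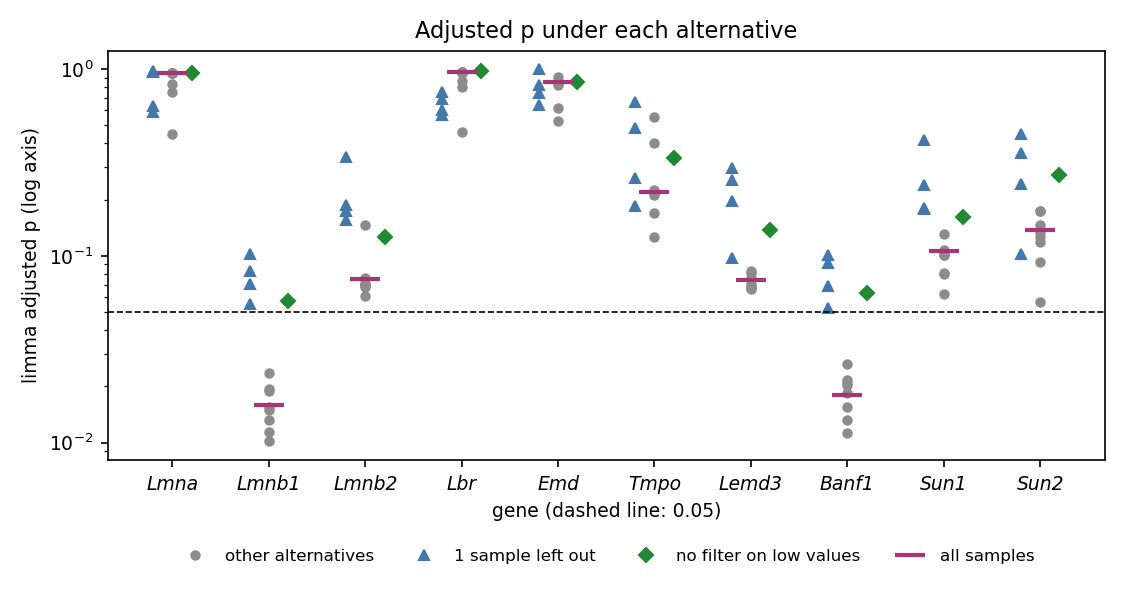
Limma adjusted p (log axis) of each of the 10 genes with all samples (purple line), with 1 sample left out (triangles), with low rows kept (diamonds) and under the other alternatives (grey circles); the dashed line is 0.05. Lmnb1 and Banf1 are under the line except with 1 sample left out or low rows kept, and the other 8 genes are above it throughout.

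Other genes of the envelope were described through 8 lists of 102 genes, of which 84 had a row of their own that met the filter. Of these 84, 3 rose and 8 fell, beside 11.5% and 14.7% of all rows, and their median log2 fold change was -0.25. Every one of these calls was lost when any 1 sample was left out and when low rows were kept. In the list of LINC complex and torsin partners, 1 of 7 rose, 1 fell and 5 did not pass. The riser was Tor1aip2, which encodes LULL1, an activator of torsin ATPases, from 35.34 and 25.64 to 53.68 and 71.04 FPKM (log2 fold change 1.01 ± 0.26, limma adjusted p = 0.0448). Tor2a, a torsin family gene, fell from 32.33 and 42.06 to 17.03 and 20.45 FPKM (-0.95 ± 0.23, limma adjusted p = 0.0395). The KASH genes of this list were low: Syne1 measured 1.09 to 1.40 FPKM over the 4 samples and Syne4 0.13 to 0.25 FPKM. In shared rows, Syne2 measured 0.04 to 0.39 FPKM and Syne3 3.49 to 4.76 FPKM. All of these Syne genes were picked for naming with their values known.

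Among 12 other inner nuclear membrane proteins, 1 fell and none rose. At an unadjusted limma p below 0.05 there were 5 of the 12, near the 43.1% of all rows. That gene was Tmem201, which encodes SAMP1, an inner membrane protein that binds the LINC complex, from 10.37 and 11.98 to 4.66 and 3.55 FPKM (log2 fold change -1.26 ± 0.23, limma adjusted p = 0.0222). Lemd2, another LEM protein and the most abundant of this list, measured 15.13 and 25.68 FPKM in uninduced and 18.16 and 23.79 FPKM in induced samples, which overlap. Of the enzymes that mature farnesylated lamins only 2 were tested, too few to describe the list. Of these, 1 fell and none rose, beside 14.7% and 11.5% of all rows. The same gene was the only 1 at an unadjusted limma p below 0.05, beside 43.1% of all rows. It was Rce1, a protease that trims prenylated proteins, from 26.40 and 27.94 to 10.92 and 11.69 FPKM (-1.20 ± 0.19, limma adjusted p = 0.018). Icmt, the methyltransferase of the next step, did not pass (-0.02 ± 0.20, limma adjusted p = 0.957) and was named because it is the other tested gene of this list. Zmpste24, Fnta and Fntb lie in rows shared with other genes and were not counted. The row of Fnta was higher in both induced samples, from 38.76 and 32.27 to 54.64 and 67.30 FPKM (0.76 ± 0.21, limma adjusted p = 0.0565). The rows of Zmpste24 (-0.43, limma adjusted p = 0.32) and Fntb (0.11, limma adjusted p = 0.678) did not pass either.

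Genes of envelope disassembly and resealing had 2 of 14 that rose and none that fell, beside 11.5% and 14.7% of all rows. The list's median was 0.40 on the log2 scale. At an unadjusted limma p below 0.05 there were 5 of the 14, beside 43.1% of all rows. The risers belong to the ESCRT machinery that closes membrane holes, at the re-forming envelope among other places. Chmp2a, an ESCRT-III subunit, rose from 60.26 and 63.58 to 107.33 and 127.31 FPKM (0.91 ± 0.20, limma adjusted p = 0.031). Vps4a, the ATPase that takes ESCRT-III apart, rose from 26.71 and 27.11 to 46.32 and 56.34 FPKM (0.90 ± 0.20, limma adjusted p = 0.0321). The ESCRT genes of the list did not all go this way. Chmp4b, another ESCRT-III subunit named after its values were seen, measured 111.63 and 131.61 FPKM in uninduced and 83.61 and 92.78 FPKM in induced samples. Its log2 fold change of -0.46 ± 0.20 did not pass (limma adjusted p = 0.145). Cdk1, the mitotic kinase that phosphorylates lamins and the most abundant of this list, measured 166.31 and 145.72 FPKM in uninduced and 165.73 and 137.99 FPKM in induced samples. Its groups overlapped almost completely. Vrk1, the kinase that releases BAF from DNA in mitosis, measured 27.66 and 24.56 FPKM against 20.45 and 16.55 FPKM and did not pass (limma adjusted p = 0.142). Vrk1 was named after its values were seen.

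Nuclear pore genes had 5 of 23 that fell and none that rose, beside 14.7% and 11.5% of all rows, with a median of -0.50. At an unadjusted limma p below 0.05 there were 8 of the 23, beside 43.1% of all rows. Nup85, Nup37, Nup43 and Sec13 are subunits of the outer ring, or Y complex, of the pore, and Nup210 is a pore membrane protein. Nup85 fell from 150.61 and 114.51 to 56.30 and 32.40 FPKM (-1.60 ± 0.33, limma adjusted p = 0.0278). Nup37 fell from 65.66 and 53.13 to 24.13 and 15.50 FPKM (-1.56 ± 0.28, limma adjusted p = 0.0214). The other called genes were Nup43 (-1.47 ± 0.35), Nup210 (-0.90 ± 0.20) and Sec13 (-0.86 ± 0.22), with limma adjusted p of 0.0397, 0.0332 and 0.0448. A further 3 subunits of the Y complex, named after their values were seen, did not pass: Nup107 (-0.43), Nup160 (-0.76) and Seh1l (-0.48). Nup62, left out of the count because its row is shared with Il4i1, was also lower (-0.94, limma adjusted p = 0.0265). The count of 5 pore genes became 2 when columns were scaled to sums without globins and the 10 most abundant rows, and 8 with a replicate block.

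In 3 lists limma called no gene, and their counts at an unadjusted p below 0.05 stand beside 43.1% of all rows tested. Of 7 heterochromatin partners, 0 were at an unadjusted p below 0.05, and the most abundant, Cbx3, which encodes an HP1 protein, measured 96.01 and 53.22 FPKM in uninduced and 87.07 and 54.94 FPKM in induced samples. Of 10 genes of cholesterol synthesis after squalene, the pathway that the sterol reductase domain of LBR serves, 1 was at an unadjusted p below 0.05. Ebp, its most abundant gene, measured 184.91 and 135.99 against 173.35 and 135.62 FPKM. Of 9 genes of nuclear condensation and enucleation, 3 were at an unadjusted p below 0.05, and Rac1, a small GTPase and the most abundant, measured 102.55 and 93.68 against 68.19 and 69.06 FPKM (-0.51 ± 0.18, limma adjusted p = 0.0966).

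**Figure D5:**
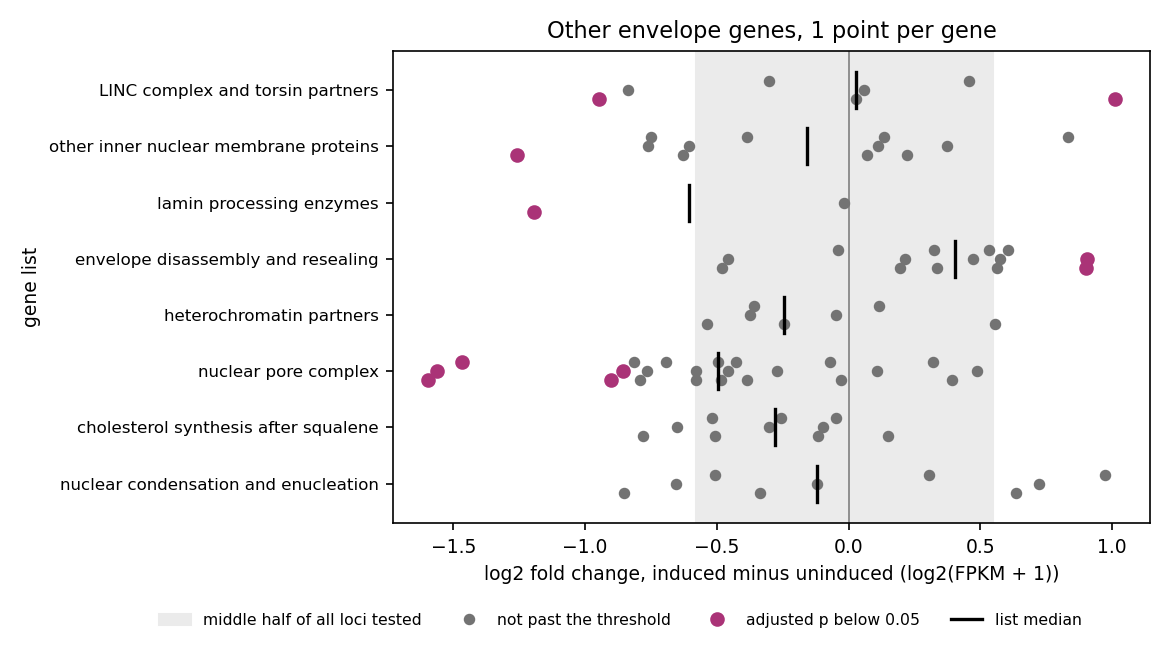
Log2 fold change, induced minus uninduced, of the 84 tested genes of 8 envelope-related lists, 1 point per gene; purple points passed the threshold, black lines are list medians and the grey band spans the quartiles of all rows tested. Nuclear pore genes have 5 called points on the left, at -1.60 to -0.86, and the resealing list has 2 on the right, near 0.90.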

How the data were processed

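RNA from 4 MEL cell samples was depleted of ribosomal RNA and sequenced, per the labels' protocols. TopHat2 and GRCm38 are named in the submitters' processing notes; the quantifier and annotation release are not given in the sources used here, nor are strandedness and depth. In the deposited table there is 1 FPKM column per sample, without pooling. The unit was inferred from the layout, that of a Cufflinks tracking table per the file headers, and from values that are not whole and sum to different totals. FPKM is relative to each library's total, so very abundant transcripts lower the others.

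Rows that reached 1 FPKM in 2 or more samples were tested as log2(FPKM + 1). The model had group as its only term and used limma 3.58.1 (R 4.3.3) with a mean-variance trend. P-values were Benjamini-Hochberg adjusted over all rows at 0.05. The fit was also run on simulated data with independent noise, of the size that the fit itself had estimated. That check therefore cannot speak to the scaling of the samples or to whether the replicates are technical. Shares used exact two-sided permutation tests. List genes whose row held several symbols were left out of counts; a symbol with no row was matched through transcript identifiers in GENCODE M21, and of several rows the most abundant was taken. Nup133 was not matched to a row and is not analysed here. Named genes were the 10 genes, up to 4 called genes per list by size of change, and each list's most abundant gene; others are said to be named after their values were seen. Genes and lists were chosen with earlier results of these data known. The 13 alternatives covered scaling, filter, pseudocount, a replicate block, leaving out each sample, rows listed at 0 and variance estimation.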

Additional observations from a re-analysis of the deposited data

How the results depend on the processing

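The direction of the change of Lmnb1, Lmnb2, Tmpo, Lemd3, Banf1, Sun1 and Sun2 held under all 13 alternatives. Only the alternatives that changed the scaling could have turned it. The groups of these genes do not overlap, so leaving out a sample cannot turn it, and the rest keep the order of the values. The calls of Lmnb1 and Banf1 held under 8 of the 13 alternatives. With no filter, 30 rows and 0 of the 10 genes passed in limma (5 of the 10 at an unadjusted p below 0.05, beside 25.9% of all rows). Lmnb1 stayed at -1.46 and Banf1 at -1.71 there, and the lists of LINC and torsin partners, other inner membrane proteins, lamin processing, resealing and nuclear pore genes each had 0 calls. That fit tested 26323 rows in place of 12890.

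With 1 sample left out, where a lone sample is assumed to vary like the other group, the number of rows called ran from 14 to 486, and 0 of the 10 genes and 0 genes of every list passed. At an unadjusted p below 0.05 there were 2 to 3 of the 10, beside 26.4% to 38.3% of all rows. Log2 fold changes ran from -1.63 to -1.29 for Lmnb1, from -1.98 to -1.44 for Banf1, from -0.24 to 0.20 for Lmna, from -0.24 to 0.21 for Lbr and from -0.21 to 0.10 for Emd. The difference in the Lmna share of lamins ran from 10.0 to 16.4 points and that in the Sun1 share from -6.92 to 0.743.

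Quantile normalization turned Lmna (0.22), Lbr (0.26) and Emd (0.17) upwards, as did the sums without globins and the 10 most abundant rows (0.0763, 0.081 and 0.0375). LINC and torsin partners had 1 call under quantile normalization and 1 with a pseudocount of 0.1. Other inner membrane proteins had 2 with median-of-ratios scaling. With the sums without globins and the 10 most abundant rows there were 2 among other inner membrane proteins, 2 among nuclear pore genes and 1 among nuclear condensation genes. Nuclear condensation genes had 1 with the 5 FPKM filter, 1 without rows listed at 0 and 1 with robust variances. The cause of these changes was not tested.

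Replicate numbers are shared between the groups, but nothing says that they pair samples. Deviations of same-numbered samples from their group means correlated at 0.17 across rows. With the replicate block 4238 rows passed against 3377 without it, and Lmnb1 and Banf1 remained the 2 called genes. Under the block, calls numbered 3 among other inner membrane proteins, 8 among nuclear pore genes, 1 in cholesterol synthesis and 2 in nuclear condensation. Read depth is unknown here, so how far it limits low genes such as Sun2 and Lemd3 cannot be stated.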
